A study of Mus musculus with 12 samples.

Results

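Expression of 10 genes of chemokine and NF-kB signalling was followed at the RNA level in C2C12, a line of mouse myoblasts able to fuse into muscle fibres. They were taken as a named list: the chemokines Ccl2, Ccl7, Cxcl1, Cxcl5, Cxcl12 and Cx3cl1, the prostaglandin synthase Ptgs2, the cytokine Il6, and the NF-kB inhibitors Nfkbia and Tnfaip3. These are 10 of 38481 genes with a listed transcript, and 9 of the 10 passed the filter on low counts that left 13247 genes for testing. Il6 did not pass and is described by its counts. The list was chosen with earlier results of these data known.

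The study crossed an siRNA with a drug in 4 groups of 3 libraries. All cells received an siRNA for 3 days, either a control against Renilla Luciferase (Luc) or Crebl2 siRNA 1, and all were then given 20 nM rapamycin or its vehicle ethanol (EtOH) for 12 h. Crebl2 encodes a bZIP protein related to CREB, and rapamycin inhibits the growth-promoting kinase complex mTORC1. A single siRNA sequence stands for the knockdown, so its off-target effects and the loss of Crebl2 cannot be told apart. Nothing in the labels says that the 3 libraries of a group are separate cultures. The p-values therefore cover the spread between libraries, which may be technical. Libraries held 33404087 to 42891015 counts, and levels are given in CPM, the library-size-scaled read rate of edgeR, with TMM scaling. Crebl2 itself was at 23.8, 25.3 and 26.2 CPM in Luc ethanol libraries and at 4.87, 7.41 and 6.01 CPM in Crebl2 ethanol libraries. With rapamycin it was at 39.9, 36.4 and 36.3 CPM and at 10.6, 8.96 and 9.48 CPM. All libraries carrying the Crebl2 siRNA were thus below all Luc libraries.

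Chemokines are small secreted proteins that draw cells along a gradient by way of G-protein-coupled receptors. Many of their genes are targets of NF-kB, a family of dimeric transcription factors held in the cytoplasm by inhibitors such as the product of Nfkbia. Signals from cytokine and Toll-like receptors activate the IKK kinases, the inhibitor is destroyed, and NF-kB then switches on inflammatory genes together with its own inhibitors Nfkbia and Tnfaip3, which end the response. In injured muscle, chemokines draw in monocytes and neutrophils, and Cxcl12 acts on myogenic cells that carry its receptor Cxcr4.

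The labelled cell type was checked on marker genes. All 9 myoblast markers passed the filter, with a summed level of 3854 to 5699 CPM per library. Of 14 macrophage and leukocyte markers 3 passed, Cd14, Lyz2 and Cd68, while C1qa and C1qb, fully countable, had no read in any library. Ptprc, Adgre1 and Itgam also had no read, but only 8.38%, 3.52% and 5.56% of their exonic bases are countable. Of 7 endothelial markers only Vwf passed, and the summed level of that list was 0.383 to 1.06 CPM.

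Levels were first compared between members per kilobase of exonic sequence that a single transcript owns, since the deposited counts leave out reads that fall on several listed transcripts. On this measure Cxcl1 was highest in Luc ethanol libraries, at 75.4 ± 1.94 CPM per kb (mean and SD, n = 3). It was followed by Ccl7 at 65.4 ± 2.00, Nfkbia at 58.7 ± 2.57, Ccl2 at 52.0 ± 1.43 and Cxcl5 at 42.2 ± 1.89 CPM per kb. Cxcl12 at 31.3 ± 1.26, Cx3cl1 at 20.0 ± 0.233 and Ptgs2 at 16.7 ± 0.947 CPM per kb came next. Each of these neighbours in the order differed by more than the sum of their SDs. The Cxcl12 value, however, spreads its reads over the own bases of a short and a long transcript. The short one held 110 CPM on 1530 own bases and the long one 17.2 CPM on 2498. The place of Cxcl12 among the members is therefore not settled by this measure. Tnfaip3 stood at 1.66 ± 0.231 and Il6 at 0.0130 ± 0.0113 CPM per kb, and both rest on few countable bases of their main transcripts. With the Crebl2 siRNA and rapamycin the order was another one, with Nfkbia at 82.1 ± 2.53, Cxcl1 at 57.0 ± 5.03, Ccl2 at 38.7 ± 1.01 and Ptgs2 at 33.6 ± 0.397 CPM per kb at the top. Cxcl5 at 31.4 ± 2.45 CPM per kb was within the summed SDs of Ptgs2, and Cx3cl1 at 23.9 ± 1.27 was within those of Ccl7 at 22.8 ± 1.31. Cxcl12 read 12.5 ± 0.262 CPM per kb with the same limit. Its short transcript held 39.6 CPM on 1530 own bases and its long one 11.6 CPM on 2498.

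The members lie at separate places in the genome except for 2 chemokine clusters (GRCm38, GENCODE M21). Ccl2 is at chr11:82035571-82037453 and Ccl7 starts 10.1 kb after it at chr11:82045712-82047525. Cxcl5 is at chr5:90759378-90761624, starting at -131.9 kb from Cxcl1 at chr5:90891241-90893115, and all 4 are on the plus strand. Cxcl12 is at chr6:117168535-117181367, Cx3cl1 at chr8:94772009-94782427 and Ptgs2 at chr1:150100031-150108227, also on the plus strand. Il6 is at chr5:30013114-30019981 on the plus strand, Nfkbia at chr12:55489410-55492647 and Tnfaip3 at chr10:19000910-19015410 on the minus strand. All exonic bases of Ccl2, Ccl7, Cxcl1, Cxcl5, Ptgs2 and Nfkbia are countable, against 85.9% for Cx3cl1, 56.3% for Cxcl12, 54.2% for Il6 and 9.45% for Tnfaip3.

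Promoters from RefSeq (GRCm38.p6, 250 bases before to 50 after the annotated start) were given for 7 members, all but Ccl2, Ccl7 and Cxcl5. The 5 of these that changed in at least 1 comparison are printed 5′ to 3′ along the gene, so that the upstream motifs can be set beside the responses described further on. Capitals mark matches on either strand to the NF-kB consensus motif, to its core GGANTTTCC, to TGACG, which is the short form of the CREB-binding element, and to the TATA box TATAAA.

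Cxcl1, chr5:90890995-90891294, plus strand: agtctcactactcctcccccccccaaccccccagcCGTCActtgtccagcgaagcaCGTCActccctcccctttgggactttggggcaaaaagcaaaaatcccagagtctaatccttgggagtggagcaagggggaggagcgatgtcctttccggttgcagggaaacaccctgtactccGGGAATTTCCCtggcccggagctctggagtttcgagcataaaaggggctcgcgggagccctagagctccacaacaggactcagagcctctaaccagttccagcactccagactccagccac

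Nfkbia, chr12:55492598-55492897, minus strand: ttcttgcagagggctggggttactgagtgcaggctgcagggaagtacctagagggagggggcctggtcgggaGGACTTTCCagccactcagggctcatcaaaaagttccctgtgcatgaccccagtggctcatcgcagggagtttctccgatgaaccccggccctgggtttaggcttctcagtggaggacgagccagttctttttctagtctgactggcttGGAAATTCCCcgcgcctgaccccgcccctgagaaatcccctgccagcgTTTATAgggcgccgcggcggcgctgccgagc

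Cxcl12, chr6:117168285-117168584, plus strand: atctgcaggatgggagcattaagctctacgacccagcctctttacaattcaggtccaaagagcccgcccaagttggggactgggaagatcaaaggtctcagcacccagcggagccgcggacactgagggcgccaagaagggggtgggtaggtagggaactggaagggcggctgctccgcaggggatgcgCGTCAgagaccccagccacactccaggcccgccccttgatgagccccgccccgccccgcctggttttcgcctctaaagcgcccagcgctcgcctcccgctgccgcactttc

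Cx3cl1, chr8:94771930-94772229, plus strand: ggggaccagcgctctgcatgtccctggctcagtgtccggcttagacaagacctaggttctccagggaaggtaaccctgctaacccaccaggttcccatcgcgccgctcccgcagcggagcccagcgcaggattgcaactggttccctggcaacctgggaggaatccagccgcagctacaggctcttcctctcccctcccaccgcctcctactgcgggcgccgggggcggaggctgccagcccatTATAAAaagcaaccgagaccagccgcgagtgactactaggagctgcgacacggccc

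Ptgs2, chr1:150099781-150100080, plus strand: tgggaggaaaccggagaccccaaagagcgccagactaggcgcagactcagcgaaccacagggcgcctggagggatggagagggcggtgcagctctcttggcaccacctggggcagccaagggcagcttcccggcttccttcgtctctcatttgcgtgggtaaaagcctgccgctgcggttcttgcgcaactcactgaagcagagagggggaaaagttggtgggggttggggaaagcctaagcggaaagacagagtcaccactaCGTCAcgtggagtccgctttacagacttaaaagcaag

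The Cxcl1 promoter carried the NF-kB consensus on both strands in 1 overlapping match that begins 71 bases before the start. In Nfkbia the consensus began 29 bases before the start, and a further GGANTTTCC match lay at 178 bases. Il6 had the consensus 44 bases before its start and Tnfaip3 at 125 and 12 bases. All 4 of these promoters held GGANTTTCC. In Cxcl1 and Il6 it lay within the consensus match, and in Tnfaip3 apart from it, 24 bases before the start. In Nfkbia a match at 29 bases lay within the consensus and the one at 178 bases apart from it. The promoters of Cxcl12, Cx3cl1 and Ptgs2 held neither the consensus nor GGANTTTCC. The NF-kB consensus was present in 8.46% and GGANTTTCC in 1.26% of 32817 mouse promoters of the same length. TGACG was found on the minus strand in Cxcl1 (215 and 194 bases before the start), Cxcl12 (61 bases before), Il6 (135 bases before) and Ptgs2 (13 bases after), and on the plus strand in Tnfaip3 (168 bases before), against 20.8% of all promoters. The full element TGACGTCA, present in 1.79%, was in none of the 7. TGANTCA, the AP-1 motif, was found in Il6 and Tnfaip3 and in 7.81% of promoters. TATAAA was in Cx3cl1 (6 bases before the start), Nfkbia (minus strand, 19 bases after) and Tnfaip3 (225 bases before), and in 13.6% of promoters. A match describes letters in this window and was not tested as a binding site.

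With the Crebl2 siRNA in ethanol, 5 of the 9 tested members fell and 1 rose, while 38.4% of all tested genes changed (21.4% higher, 17.0% lower). All 5 were chemokines: Ccl7, Cxcl12, Ccl2, Cxcl1 and Cxcl5. Ptgs2 rose. The members' median log2 fold change was -0.41, against 0.01 over all tested genes. As the list was chosen with earlier results known, such shares and medians describe it and do not test it. In rapamycin 6 fell and 1 rose, against 33.1% of all tested genes (16.3% higher, 16.8% lower). The median was then -0.37 against -0.01. The comparison in rapamycin shares no library with that in ethanol. Groups without overlap, a looser reading used below, were found for 46.9% of all genes in ethanol and 46.0% in rapamycin.

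**Figure D1:**
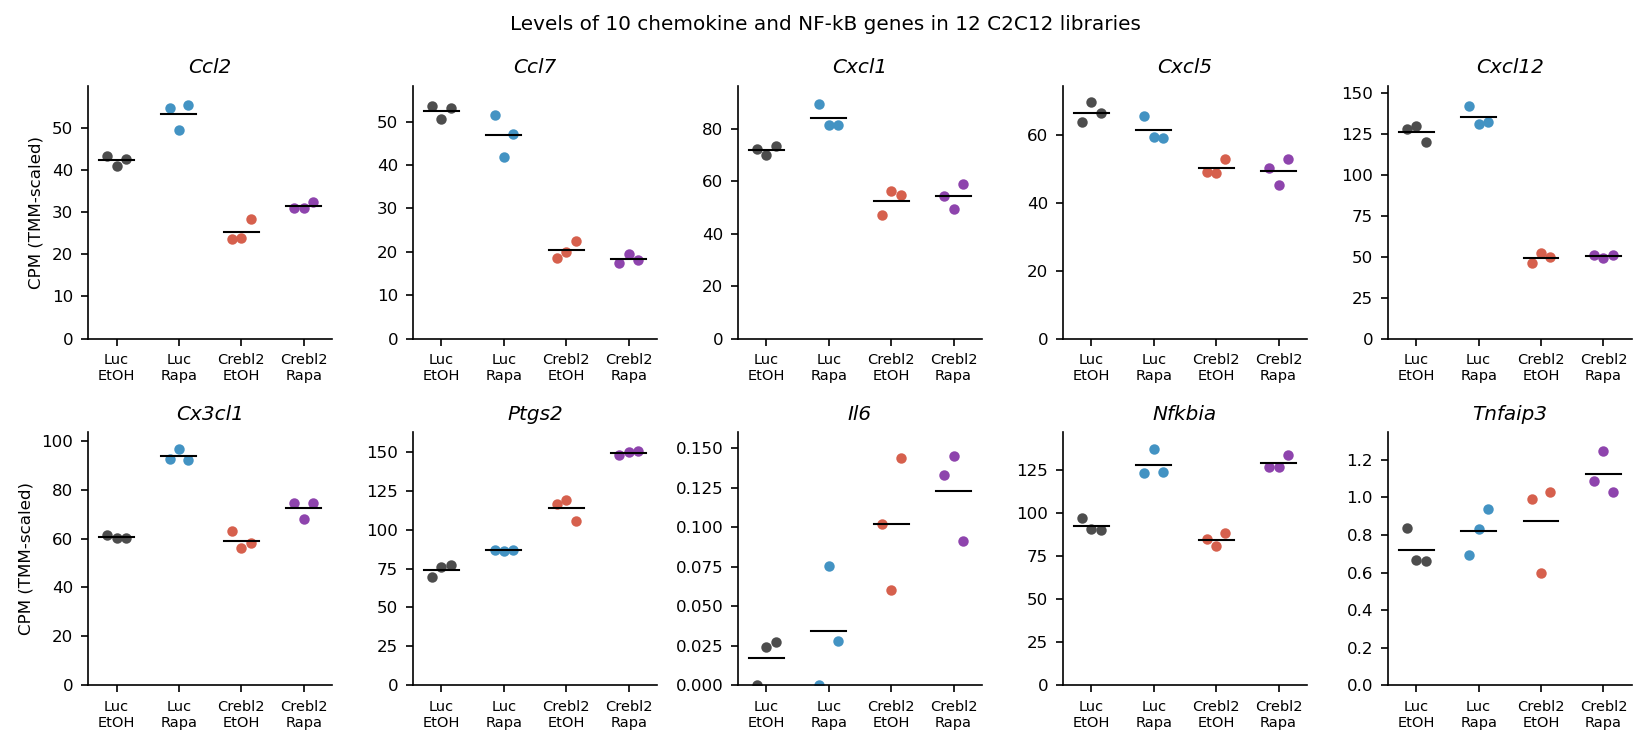
CPM of the 10 genes in each of the 12 libraries. Points are libraries, short lines are group means (n = 3), and each panel has its own linear axis from 0. Ccl7 and Cxcl12 lie far lower in the 6 Crebl2 siRNA libraries than in the 6 Luc libraries, and Ptgs2 lies higher.

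Ccl2 and Ccl7 encode neighbouring CC chemokines that attract monocytes through the receptor Ccr2. Ccl7 stood at 53.6, 50.6 and 53.1 CPM in the Luc ethanol libraries and at 18.6, 20.0 and 22.4 CPM in the Crebl2 ethanol libraries. The Luc rapamycin libraries held 51.6, 41.8 and 47.1 CPM and the Crebl2 rapamycin libraries 17.3, 19.4 and 18.1 CPM. The siRNA groups were far apart under either treatment. Ccl7 fell 2.58-fold in ethanol (log2 change -1.37, SE 0.08, edgeR adjusted p = 7.7e-09) and 2.57-fold in rapamycin (-1.36, SE 0.08, edgeR adjusted p = 1.1e-08).

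Ccl2 was measured at 43.3, 41.0 and 42.6 CPM in Luc ethanol libraries and at 23.6, 23.8 and 28.3 CPM in Crebl2 ethanol libraries. With rapamycin the libraries read 54.8, 49.5 and 55.5 CPM with Luc and 30.9, 31.0 and 32.4 CPM after knockdown. No Crebl2 siRNA library reached the lowest Luc library of its treatment. The fall was smaller than that of Ccl7, 1.67-fold in ethanol (log2 -0.74, SE 0.07, edgeR adjusted p = 9.2e-07) and 1.69-fold in rapamycin (-0.76, SE 0.07, edgeR adjusted p = 7.0e-07).

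The unequal fall could be read within a library as the count of Ccl7 per count of Ccl2. This ratio was 1.24, 1.23 and 1.25 in Luc ethanol and 0.787, 0.839 and 0.790 in Crebl2 ethanol libraries. In rapamycin it was 0.941, 0.845 and 0.849 with Luc and 0.561, 0.624 and 0.558 after knockdown. No 2 groups that differ in siRNA or in drug alone overlapped, and both the siRNA and rapamycin went with less Ccl7 per Ccl2. The log2 ratio differed by -0.62 for the siRNA in ethanol, -0.60 in rapamycin, -0.50 for rapamycin with Luc and -0.47 with the Crebl2 siRNA. Each gave a two-sided exact permutation p of 0.1, the smallest that 3 against 3 libraries allow.

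**Figure D2:**
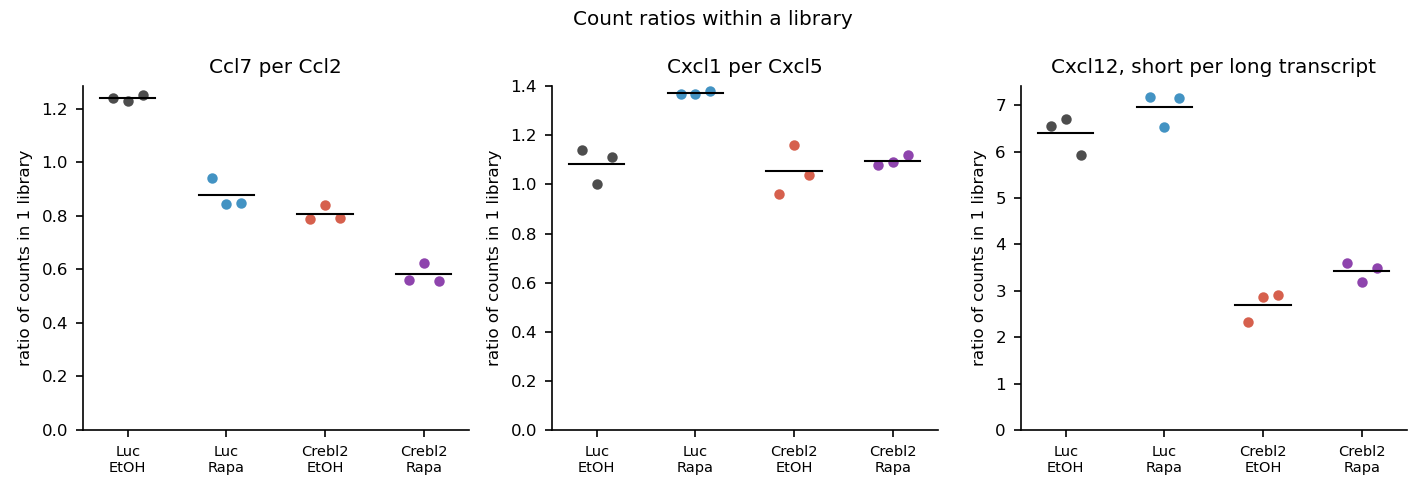
Ratio of 2 counts within each library on linear axes from 0, for Ccl7 per Ccl2, Cxcl1 per Cxcl5 and the short per the long transcript of Cxcl12. Points are libraries and lines are group means (n = 3). Ccl7 per Ccl2 lies between 1.23 and 1.25 in Luc ethanol libraries and between 0.558 and 0.624 with the Crebl2 siRNA and rapamycin.

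Cxcl1 and Cxcl5 belong to the CXC chemokines that attract neutrophils through Cxcr2. Cxcl1 read 72.3, 69.9 and 73.5 CPM in Luc ethanol libraries against 47.0, 56.1 and 54.7 CPM after knockdown. In rapamycin the values were 89.6, 81.4 and 81.4 CPM against 54.3, 49.5 and 59.1 CPM. Groups were again separate. Cxcl1 fell by 0.45 on the log2 scale in ethanol (SE 0.07, edgeR adjusted p = 1.4e-04) and by 0.63 in rapamycin (SE 0.07, edgeR adjusted p = 7.3e-06). The difference between these falls was not called (interaction -0.18, SE 0.10, edgeR adjusted p = 0.45).

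Cxcl5 had the smallest fold change of the 5 chemokines that fell in both comparisons. It stood at 63.7, 69.6 and 66.3 CPM against 49.0, 48.6 and 52.8 CPM in ethanol, and at 65.6, 59.4 and 59.0 CPM against 50.2, 45.3 and 52.9 CPM in rapamycin. The groups did not overlap under either treatment. The log2 fold changes were -0.41 (SE 0.06, edgeR adjusted p = 1.1e-04) and -0.31 (SE 0.06, edgeR adjusted p = 0.0014).

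Cxcl12 encodes the ligand of Cxcr4 and of the scavenging receptor Ackr3. It was at 128, 130 and 120 CPM in Luc ethanol and 45.9, 51.9 and 49.8 CPM in Crebl2 ethanol libraries. In rapamycin it was at 142, 131 and 132 CPM with Luc and 51.2, 49.3 and 51.2 CPM after knockdown. The highest Crebl2 siRNA library had 51.9 CPM and the lowest Luc library 120 CPM. The fall was 2.56-fold in ethanol (log2 -1.36, SE 0.05, edgeR adjusted p = 1.6e-10) and 2.67-fold in rapamycin (-1.42, SE 0.05, edgeR adjusted p = 6.3e-11).

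The deposited counts are per transcript and leave out reads on shared bases. Of the counted Cxcl12 reads, 83.8% belonged to a short transcript of 1878 exonic bases and 16.2% to a long one of 5627 exonic bases. The short one owns 81.5% of its bases and the long one 44.4%, so these are not shares of all Cxcl12 RNA. These transcripts end in different last exons. The bases that only the short transcript owns are 1491 bases of its last exon (chr6:117173579-117175069) and 39 bases at the start of the gene, whereas the long transcript is counted almost entirely over 2497 bases of its own last exon (chr6:117176086-117178582). The other listed transcript owns no base and had no read. The short transcript was at 112, 114 and 104 CPM in Luc ethanol and 31.9, 38.5 and 36.5 CPM in Crebl2 ethanol libraries. In rapamycin it was at 123, 113 and 114 CPM and at 40.4, 38.2 and 40.1 CPM.

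The long transcript was at 17.1, 17.0 and 17.6 CPM in Luc ethanol and 13.7, 13.4 and 12.5 CPM in Crebl2 ethanol libraries, and in rapamycin at 17.2, 17.3 and 15.9 CPM and at 11.3, 12.0 and 11.5 CPM. Both transcripts were separated by siRNA, with a wider gap for the short transcript. Tested among all 14494 transcripts, of which 34.6% changed in ethanol, the short transcript had a log2 fold change of -1.63 (SE 0.06, edgeR adjusted p = 1.5e-10) and the long transcript of -0.38 (SE 0.07, edgeR adjusted p = 3.6e-04). In rapamycin, where 31.4% of transcripts changed, the values were -1.56 (SE 0.06, edgeR adjusted p = 1.4e-10) and -0.53 (SE 0.07, edgeR adjusted p = 2.3e-05). The interaction, called for 1.18% of transcripts, was not called for either (0.07, SE 0.09, and -0.15, SE 0.10, edgeR adjusted p = 0.82 and 0.57).

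The count of the short per count of the long Cxcl12 transcript was 6.56, 6.70 and 5.92 in Luc ethanol and 2.33, 2.87 and 2.91 in Crebl2 ethanol libraries. With rapamycin it was 7.17, 6.52 and 7.16 and 3.59, 3.18 and 3.49. The ratio was lower in every Crebl2 siRNA library than in every Luc library. The log2 difference was -1.25 in ethanol and -1.02 in rapamycin, each with an exact permutation p of 0.1 (two-sided), again the smallest possible.

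Cx3cl1 encodes fractalkine, a chemokine made as a membrane protein and shed by proteases. Luc ethanol libraries held 61.5, 60.1 and 60.4 CPM and Crebl2 ethanol libraries 63.1, 56.3 and 58.1 CPM. The 2 groups overlapped, and the log2 fold change was -0.04 (SE 0.05, edgeR adjusted p = 0.64). Luc rapamycin libraries held 92.4, 96.5 and 92.2 CPM and Crebl2 rapamycin libraries 74.6, 68.0 and 74.7 CPM. There the groups were apart, and Cx3cl1 fell by 0.37 on the log2 scale (SE 0.05, edgeR adjusted p = 4.9e-05).

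Ptgs2 encodes the inducible cyclooxygenase that starts prostaglandin synthesis. It moved opposite to the chemokines: 69.5, 76.4 and 77.1 CPM in Luc ethanol libraries against 117, 119 and 106 CPM after knockdown. In rapamycin it read 87.2, 86.4 and 86.9 CPM against 148, 150 and 151 CPM. Every Crebl2 siRNA library was above every Luc library. Ptgs2 rose 1.53-fold in ethanol (log2 0.61, SE 0.05, edgeR adjusted p = 3.1e-07) and 1.72-fold in rapamycin (log2 0.79, SE 0.05, edgeR adjusted p = 2.4e-08).

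Il6, the cytokine that signals through Il6st, was counted only in part. All of its 31 reads fell on the 1232 own bases of 1 listed transcript, while another, of 1141 exonic bases, owns 30 of them (2.63%) and had 0 reads, so the level of Il6 as a whole is not given by these counts. There were 0, 1 and 1 counts in Luc ethanol, 0, 3 and 1 in Luc rapamycin, 4, 2 and 6 in Crebl2 ethanol and 5, 5 and 3 in Crebl2 rapamycin libraries. Summed, this was 2 counts against 12 in ethanol and 4 against 13 in rapamycin. In CPM the siRNA groups did not overlap under either treatment, with a two-sided exact permutation p of 0.1 each. In rapamycin they were apart only after scaling, since the highest Luc and the lowest Crebl2 library each held 3 counts (0.0756 and 0.0912 CPM). No fold change was formed at this depth. A count of 3, taken as the detection limit, is worth 0.0713 to 0.0912 CPM per library.

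The feedback inhibitors did not pass the test for the siRNA. Nfkbia, which encodes the inhibitor that retains NF-kB in the cytoplasm, was at 97.3, 90.7 and 89.9 CPM in Luc ethanol and 84.6, 80.7 and 88.2 CPM in Crebl2 ethanol libraries. The groups lay close together without overlap, and the log2 fold change was -0.13 (SE 0.05, edgeR adjusted p = 0.062). That value is near the threshold, and 6 of 14 alternatives put it below, with adjusted p from 0.028 to 0.23 over all of them. In rapamycin Nfkbia was at 123, 137 and 124 CPM with Luc and 127, 127 and 134 CPM after knockdown, overlapping groups with a log2 fold change of 0.02 (SE 0.05, edgeR adjusted p = 0.83).

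Tnfaip3 encodes a ubiquitin-editing enzyme that shuts off signalling to IKK. It was read from 9.45% of its exonic bases, at 0.836, 0.666 and 0.660 CPM in Luc ethanol and 0.994, 0.600 and 1.03 CPM in Crebl2 ethanol libraries. Luc rapamycin libraries held 0.693, 0.831 and 0.940 CPM and Crebl2 rapamycin libraries 1.09, 1.25 and 1.03 CPM. The siRNA groups overlapped in ethanol and not in rapamycin. The log2 fold changes were 0.29 (SE 0.22, edgeR adjusted p = 0.33) and 0.45 (SE 0.22, edgeR adjusted p = 0.13), and the large errors go with the few countable reads.

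Some genes listed as markers of another cell type moved with the siRNA beside these chemokines. Of 8 fibroblast and adipogenic markers 5 were tested. With the Crebl2 siRNA 4 of them were lower in ethanol and in rapamycin, where 17.0% and 16.8% of all tested genes were lower. The list summed to 39.3 to 44.8 CPM in Luc ethanol and 16.2 to 19.8 CPM in Crebl2 ethanol libraries. In rapamycin it summed to 41.2 to 44.2 CPM with Luc and, after knockdown, to 20.0 CPM in the lowest library. The medians were -1.48 and -0.85. Dcn (log2 -2.00 in both, with 18.7% of its bases countable) and Dpt (-2.85 and -3.07) fell most. Pdgfra did not pass in either, with means of 1.22 against 1.42 CPM in ethanol and 1.85 against 2.01 CPM in rapamycin. Thy1, fully countable, was not tested and had at most 2 counts in a library. The leukocyte list summed to 41.1 to 46.9 CPM against 32.5 to 35.1 CPM in ethanol and 43.6 to 44.3 CPM against 30.8 to 31.3 CPM in rapamycin. Nearly all of that sum was the single gene Cd14, which was lower in both (log2 -0.40 and -0.51). Its means were 40.8 against 30.9 CPM in ethanol and 41.4 against 29.0 CPM in rapamycin. Among 9 myoblast markers, 1 was higher and 3 were lower in ethanol, and 4 and 2 in rapamycin, with medians of -0.05 and 0.26 and Myog at log2 -3.33 and -3.06. The part of these markers in the chemokine results was not tested. In bulk RNA, fewer cells of a type and less RNA per cell cannot be told apart.

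Rapamycin raised part of the members. With the Luc siRNA 5 of the 9 rose and edgeR called 0 lower, where 41.1% of all tested genes changed (19.5% higher, 21.6% lower). The 5 were Cx3cl1, Nfkbia, Ccl2, Cxcl1 and Ptgs2, and the median log2 fold change was 0.22 against 0.02 over all tested genes. With the Crebl2 siRNA 4 rose and edgeR called 0 lower, against 45.3% of all genes (19.7% higher, 25.6% lower), namely Nfkbia, Ptgs2, Cx3cl1 and Ccl2. The median was 0.29 against -0.01. In both comparisons 0 members were lower at an unadjusted p under 0.05, and DESeq2 called 0 lower. With Luc, however, Ccl7 and Cxcl5 were called lower with no count filter and without Luc rapamycin library 1. Rapamycin and ethanol groups did not overlap in 50.4% of all genes with Luc and 53.6% with the Crebl2 siRNA.

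**Figure D3:**
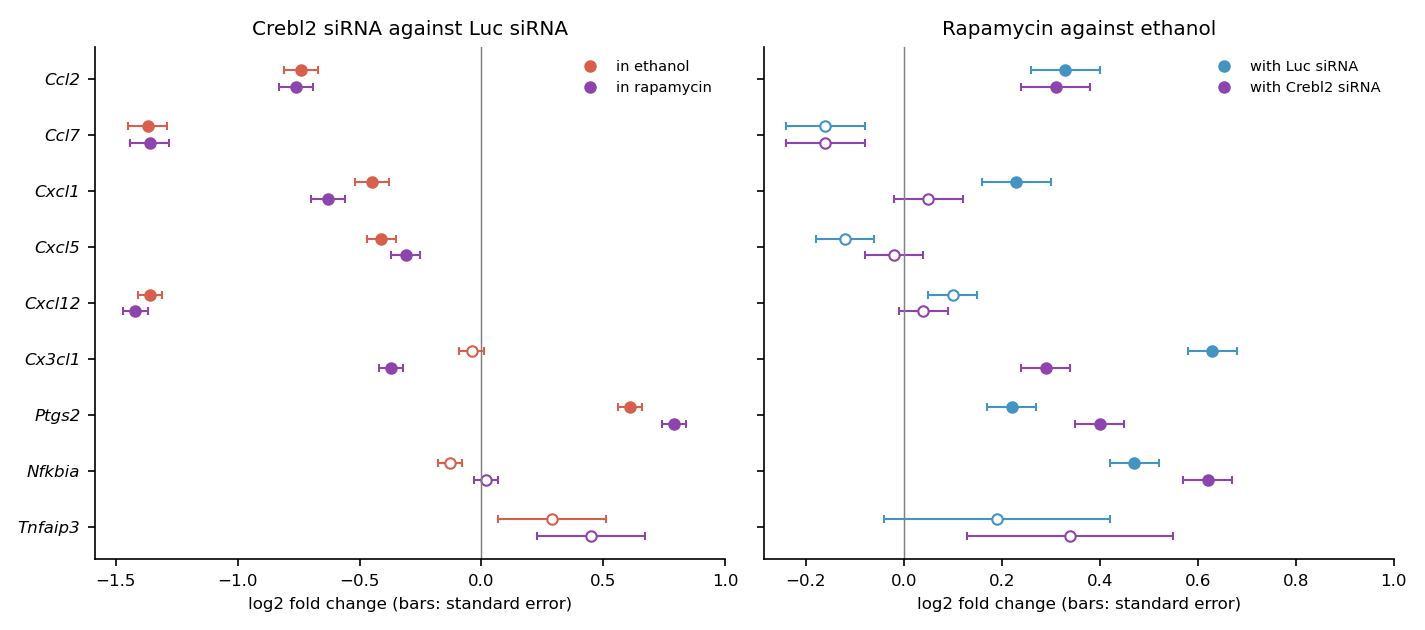
Log2 fold change (x axis) with its standard error for the 9 tested genes, for the Crebl2 siRNA against Luc (left) and rapamycin against ethanol (right). Filled points have an edgeR adjusted p under 0.05, open points do not. On the left Ccl2, Ccl7, Cxcl1, Cxcl5 and Cxcl12 have filled points below 0 and Ptgs2 above it under either treatment, Cx3cl1 has one below 0 in rapamycin, and on the right Cx3cl1, Nfkbia, Ptgs2 and Ccl2 lie above 0 with either siRNA.

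Nfkbia rose with rapamycin by 0.47 on the log2 scale with Luc (SE 0.05, edgeR adjusted p = 3.4e-06) and by 0.62 after knockdown (SE 0.05, edgeR adjusted p = 1.3e-07). From the values above, every rapamycin library was above every ethanol library. The difference between the changes was not called (0.15, SE 0.07, edgeR adjusted p = 0.38).

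Ptgs2 rose with rapamycin by 0.22 with Luc (SE 0.05, edgeR adjusted p = 0.0025) and by 0.40 after knockdown (SE 0.05, edgeR adjusted p = 9.9e-06), so the libraries with the Crebl2 siRNA and rapamycin were the highest of all. Its interaction was 0.17 (SE 0.07, edgeR adjusted p = 0.29). Ccl2 rose by 0.33 (SE 0.07, edgeR adjusted p = 8.9e-04) and 0.31 (SE 0.07, edgeR adjusted p = 0.0017) in the same order. Its cluster neighbour Ccl7 did not pass, with -0.16 (SE 0.08) in both and edgeR adjusted p = 0.10 and 0.15.

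Cxcl1 rose with rapamycin in Luc libraries by 0.23 (SE 0.07, edgeR adjusted p = 0.017). Without Luc ethanol library 2 the adjusted p was 0.062 and without Luc rapamycin library 1 it was 0.14. With the Crebl2 siRNA the change was 0.05 (SE 0.07, edgeR adjusted p = 0.64). Cxcl5 did not pass, at -0.12 (SE 0.06, edgeR adjusted p = 0.15) and -0.02 (SE 0.06, edgeR adjusted p = 0.84). Without Luc rapamycin library 1, Ccl7 (-0.27, adjusted p = 0.015) and Cxcl5 (-0.20, adjusted p = 0.026) counted as lower in the Luc comparison.

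The count of Cxcl1 per count of Cxcl5 was 1.14, 1.00 and 1.11 in Luc ethanol and 1.37, 1.37 and 1.38 in Luc rapamycin libraries. With the Crebl2 siRNA it was 0.960, 1.16 and 1.04 in ethanol and 1.08, 1.09 and 1.12 in rapamycin. The Luc rapamycin libraries stood above all others. The log2 ratio rose by 0.34 with rapamycin in Luc libraries (exact permutation p = 0.1, two-sided) and differed by 0.07 with the Crebl2 siRNA (exact permutation p = 0.5, two-sided).

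Cxcl12 was at 0.10 (SE 0.05, edgeR adjusted p = 0.14) for rapamycin with Luc, where the groups did not overlap, and at 0.04 (SE 0.05, edgeR adjusted p = 0.59) with the Crebl2 siRNA. Of its transcripts, the long one was lower with rapamycin in Crebl2 siRNA libraries (-0.19, SE 0.07, edgeR adjusted p = 0.038, where 42.8% of transcripts changed). With Luc neither transcript passed, where 38.8% changed. Tnfaip3 was at 0.19 (SE 0.23, edgeR adjusted p = 0.55) and 0.34 (SE 0.21, edgeR adjusted p = 0.21). Il6 had 2 counts against 4 and 12 against 13, with two-sided exact permutation p of 0.5 and 0.6.

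Cx3cl1 was the 1 member whose rapamycin change differed between the siRNAs, in a test that called 1.20% of all genes. It rose 1.55-fold with Luc (log2 0.63, SE 0.05, edgeR adjusted p = 1.1e-07) and by 0.29 on the log2 scale after knockdown (SE 0.05, edgeR adjusted p = 2.5e-04). The difference was -0.34 (SE 0.07, edgeR adjusted p = 0.037). It was negative in all 19 alternatives, from -0.37 to -0.24, but not called in 14 of them, with adjusted p from 0.0082 to 0.16. Leaving out any library other than Crebl2 ethanol library 2 ended the call. The values were lowest in size without Crebl2 rapamycin library 2 (-0.24, adjusted p = 0.16).

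The other genes of the pathway were read from further lists, which together with the marker lists held 228 genes. Counts of rises and falls in these lists and the marker lists are to be read beside the shares of all tested genes. With the siRNA these were 21.4% higher and 17.0% lower in ethanol, and 16.3% and 16.8% in rapamycin. For rapamycin they were 19.5% and 21.6% with Luc, and 19.7% and 25.6% with the Crebl2 siRNA. Among 31 other chemokine ligands 11 were tested. Of these, 2 rose and 5 fell after knockdown in ethanol, and 3 rose and 3 fell in rapamycin, with medians of -0.53 and 0.03. Ccl8, a CC chemokine 79.6 kb after Ccl2 in the same cluster, fell by 2.26 on the log2 scale (SE 0.14, edgeR adjusted p = 1.7e-08) from a mean of 7.35 to 1.54 CPM in ethanol, and by 1.78 in rapamycin (SE 0.16, edgeR adjusted p = 5.5e-07). Cxcl15, which lies between Cxcl5 and Cxcl1, fell by 1.34 and 1.26 (edgeR adjusted p = 6.3e-04 and 0.0013) from a mean of 1.43 CPM. Ppbp, also between them, did not pass in ethanol (0.06, SE 0.13, edgeR adjusted p = 0.76) and rose in rapamycin (0.44, SE 0.13, edgeR adjusted p = 0.016). Cxcl2, 12.6 kb after Cxcl1 with 40.3% of its bases countable, had no read.

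Rapamycin lowered 4 of these ligands with Luc while the other 7 did not pass, and it raised 3 and lowered 3 with the Crebl2 siRNA, with medians of -0.37 and -0.19. Cxcl13, a B-cell attractant, fell by 3.14 (SE 0.18, edgeR adjusted p = 1.9e-09), from a mean of 8.60 to 0.979 CPM, and by 2.61 after knockdown (SE 0.18, edgeR adjusted p = 9.3e-09). Ccl11, the eotaxin gene 22.3 kb after Ccl2, fell by 1.39 and 1.10 (edgeR adjusted p = 3.7e-05 and 8.7e-04). Ccl8 fell by 0.87 with Luc (SE 0.13, edgeR adjusted p = 5.7e-05) and did not pass after knockdown (-0.40, SE 0.17, edgeR adjusted p = 0.072). Within the Ccl2 cluster, rapamycin in Luc libraries thus went with more Ccl2, less Ccl11 and Ccl8, and a Ccl7 change that did not pass.

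Of 23 chemokine receptors 6 were tested, with medians of 0.36 and 0.46 for the siRNA and -0.06 and -0.03 for rapamycin. Both receptors of Cxcl12 were well expressed. Cxcr4, its signalling receptor, fell slightly with the Crebl2 siRNA (log2 -0.25 and -0.28, SE 0.07 each, edgeR adjusted p = 0.010 and 0.0069) from a mean of 47.0 to 39.5 CPM in ethanol. Ackr3, which removes the ligand, rose (0.26 and 0.25, SE 0.05 each, edgeR adjusted p = 5.6e-04 and 0.0011) from 124 to 148 CPM. Cxcr6 rose by 2.13 and 2.32 with the siRNA and by 1.09 and 1.27 with rapamycin, from a mean of 0.381 CPM in Luc ethanol libraries to 4.10 CPM with both. In all, 2 receptors rose and 2 fell in ethanol, 3 and 1 in rapamycin, and with rapamycin 1 rose in Luc and 2 rose in Crebl2 siRNA libraries while the others did not pass. Ccr2, the receptor of Ccl2 and Ccl7, had at most 2 counts in a library (46.5% of its bases countable) and Cx3cr1, the receptor of Cx3cl1, at most 7 (16.5% countable).

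Of 19 NF-kB subunits and inhibitors 12 were tested. Of these, 5 fell with the Crebl2 siRNA in ethanol and 4 in rapamycin while the others did not pass. Among all tested genes 38.4% and 33.1% changed in these comparisons. The list medians were -0.12 and -0.13. Nfkb1, the p50 precursor, fell by 0.39 and 0.48 (SE 0.07 each, edgeR adjusted p = 5.4e-04 and 1.3e-04, 27.3% of its bases countable). The inhibitor Nfkbie fell by 0.63 and 0.31 (SE 0.06 each, edgeR adjusted p = 2.1e-06 and 0.0016), and the nuclear regulator Bcl3 by 0.82 and 0.77 (SE 0.13 each, edgeR adjusted p = 1.4e-04 and 2.7e-04). Rapamycin raised 2 and lowered 3 with Luc, and raised 4 and lowered 4 with the Crebl2 siRNA. The medians were 0.00 and 0.13. Nfkbil1 rose in both (0.37 and 0.52). Rel, a subunit of NF-kB, fell by 0.23 with Luc and by 0.43 after knockdown (SE 0.08 each, edgeR adjusted p = 0.029 and 3.4e-04).

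**Figure D4:**
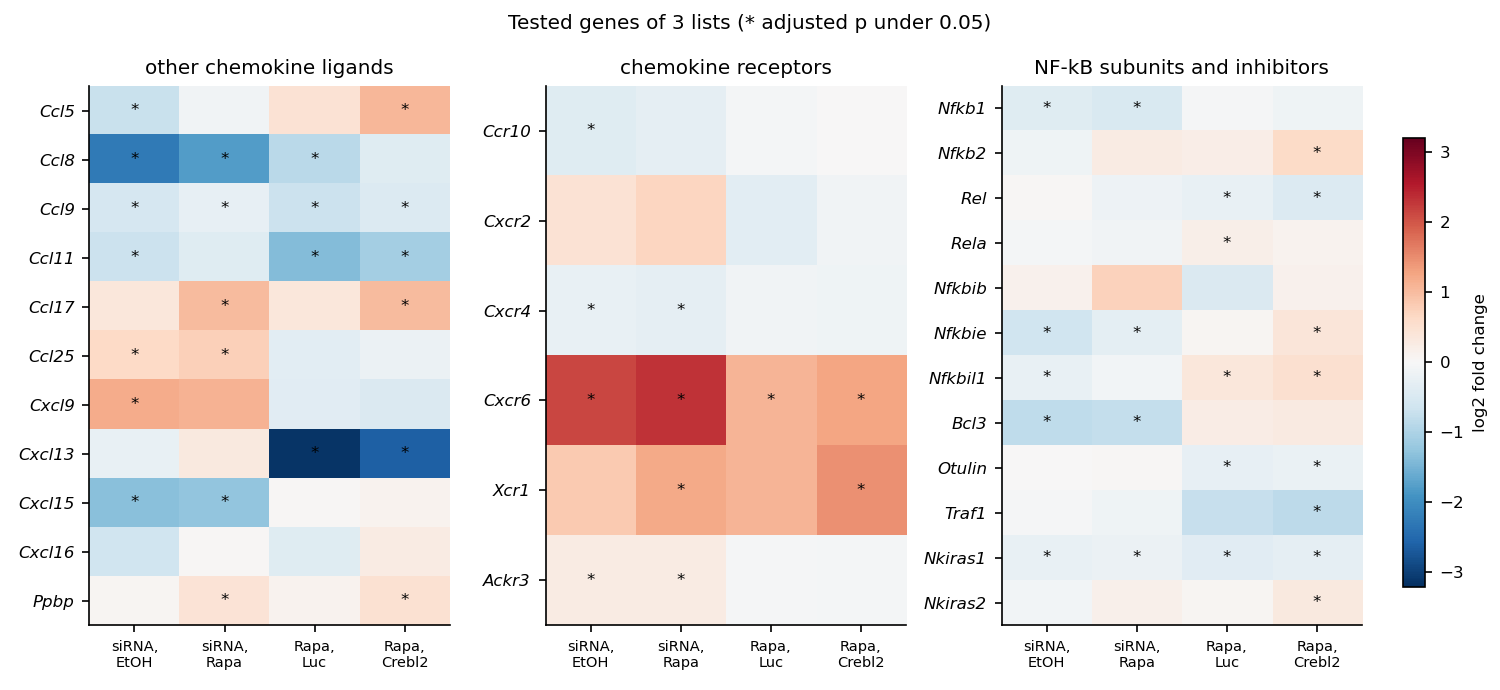
Log2 fold change (colour, red higher and blue lower) of the tested other chemokine ligands (11), chemokine receptors (6) and NF-kB subunits and inhibitors (12) in 4 comparisons (columns). Stars mark an edgeR adjusted p under 0.05. Ccl8 and Cxcl15 are blue in the siRNA columns, Cxcl13 in the rapamycin columns, and Nfkb1, Nfkbie and Bcl3 are starred and blue in both siRNA columns.

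Of 36 IKK kinases and upstream receptors and adaptors 31 were tested, and most did not pass: 3 rose and 1 fell with the Crebl2 siRNA in ethanol, 1 and 4 in rapamycin, 6 and 1 with rapamycin in Luc and 5 and 4 in Crebl2 siRNA libraries. The medians were -0.04, -0.08, 0.01 and 0.01. Tnfrsf1b, a receptor for tumour necrosis factor, rose with rapamycin by 0.47 and 0.46 (SE 0.05 each, edgeR adjusted p = 1.2e-06 each), and the kinase Tbk1 fell by 0.34 and 0.38. The Toll-like receptor Tlr2 rose by 0.57 with Luc and by 0.27 after knockdown. Of 36 other inflammatory target genes 17 were tested, and counts of rises and falls were 5 and 5, 6 and 4, 5 and 3, and 6 and 3 in the same order, with medians of -0.23, -0.11, 0.20 and 0.42. Plau, the urokinase, was lower in each comparison (-0.57, -0.53, -0.69 and -0.65). Cebpd, a transcription factor, rose with rapamycin by 1.10 and 1.21. Ptx3, a soluble pattern receptor, rose with the siRNA by 1.20 and 0.57.

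Of 17 decay factors of AU-rich mRNAs, which shorten the life of many cytokine transcripts, 13 were tested, with 1 rise and 2 falls, 2 and 4, 2 and 3, and 3 and 5 in that order. The medians were 0.00, -0.11, 0.01 and -0.13. Zfp36 rose with rapamycin in Luc libraries by 1.86 (SE 0.30, edgeR adjusted p = 1.2e-04), at a mean of 0.350 against 1.28 CPM and with 48.6% of its bases countable. After knockdown it rose by 0.91 (SE 0.36, edgeR adjusted p = 0.050, called before rounding), where the groups overlapped. Hnrnpd was lower in all 4 comparisons (-0.32, -0.69, -0.54 and -0.91). Of 23 genes of the prostaglandin and interleukin-6 pathway 18 were tested. With the siRNA 4 rose and 8 fell in ethanol and 3 and 9 in rapamycin. With rapamycin 8 rose and 1 fell in Luc and 6 and 2 in Crebl2 siRNA libraries. The medians were -0.24, -0.38, 0.19 and 0.09. The feedback inhibitor Socs3 fell with the siRNA by 0.42 and 0.57 (SE 0.05 each, edgeR adjusted p = 1.9e-05 and 9.8e-07), and the kinase Tyk2 by 0.54 and 0.47. Ptges3, a listed prostaglandin synthase gene, fell with rapamycin by 0.54 and 0.79, with 22.1% of its bases countable. Another, Ptges, did not pass with Luc and rose by 0.59 after knockdown (SE 0.21, edgeR adjusted p = 0.032).

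Of 7 chemokine-processing proteases 4 were tested, with medians of -0.12 in both siRNA comparisons and 0.19 and 0.13 for rapamycin. Mmp14, a membrane protease that activates Mmp2, fell with the Crebl2 siRNA by 0.65 and 0.77 (SE 0.05 each, edgeR adjusted p = 6.7e-08 and 1.3e-08), from a mean of 1291 to 821 CPM in ethanol. Mmp2 fell by 0.14 in both and rose with rapamycin by 0.25 in both (SE 0.05 each). Adam10, which sheds Cx3cl1, fell by 0.22 with rapamycin in Crebl2 siRNA libraries (SE 0.05, edgeR adjusted p = 0.0034). In all, 2 fell with the siRNA under either treatment, 2 rose with rapamycin in Luc libraries, and 2 rose and 1 fell in Crebl2 siRNA libraries, while the others did not pass.

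For the rapamycin comparisons the marker lists read as follows. Among myoblast markers 5 fell with Luc and the other 4 did not pass, and 1 rose and 5 fell with the Crebl2 siRNA, with a summed level of 5343 to 5699 CPM in Luc ethanol and 3854 to 4110 CPM in Luc rapamycin libraries. The 3 leukocyte markers tested did not pass with either siRNA. Vwf rose in both (0.84 and 1.00) at the low level given above, and of 5 fibroblast and adipogenic markers 2 rose and 1 fell with Luc and 1 and 1 with the Crebl2 siRNA. Their part in the members' rapamycin changes was not tested.

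Genes whose log2 CPM followed a member most closely over the 12 libraries were named as a description, from 6983 protein-coding genes that averaged 5 CPM or more. All 12 points share the 4 groups, so the values mainly reflect group means. Cxcl12 was followed by Mcl1 (Pearson r = 0.997) and Slc24a3 (0.994), Ccl7 by Tmed4 (0.991) and Spryd3 (0.986), and Ccl2 by Galnt15 and Gsdmd (0.986 each). Nfkbia was followed by Mtmr14 and Bckdha (0.992 each), Ptgs2 by Litaf (0.987) and Fgd3 (0.984), and Cx3cl1 by Foxf2 (0.982) and Atp9b (0.980). Cxcl1 had Lix1 (0.983) and Fgf10 (0.978), and Cxcl5 had Mgam (0.967). For Tnfaip3 the nearest were Caskin2 (0.927) and Ppp1r13l (0.894) among 6984 genes. Among the members, Ccl7 and Cxcl12 were closest, with r = 0.98.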

How the data were processed

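Stranded total-RNA libraries of C2C12 cells were sequenced. The deposited values are whole-number read counts per Ensembl transcript, not normalized. The submitters' processing notes name Trim Galore, TopHat and HTSeq and list both mm9 and GRCm38. The annotation, strand setting and rule for shared reads are not given in the sources used here. Counts were summed per gene with GENCODE M21, which matched 99.41% of 58611 transcripts. Of 8507 protein-coding transcripts that own no exonic base 99.3% were without reads, against 32.0% of the others, so shared reads are missing. The countable share, the percentage of exonic bases that a single transcript owns, is given for the members and for other genes where it bears on a low value.

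Genes passing edgeR's filter by group (minimum count 10) were tested with edgeR 4.0.16 (R 4.3.3, quasi-likelihood F test, TMM, 12 libraries, 4 group means). Genes count as changed when the p-value, adjusted by Benjamini-Hochberg over 13247 genes, is under 0.05. The SE is |log2 fold change| over the root of F. The interaction subtracts the rapamycin change in Luc libraries from that in knockdown libraries. Medians of lists are over log2 fold changes of their tested genes, to be read against those of all tested genes in the same comparison. The fit was tested on simulated data. Named genes of the other lists came from the up to 3 called genes with the smallest p per comparison. Not all genes so picked are given, and some values come from further comparisons. Ppbp, Ptges, Cxcl2, Ccr2 and Cx3cr1 were chosen after their values were seen. So were the markers Cd68, C1qa, C1qb, Ptprc, Adgre1, Itgam and Thy1. 1 gene that the rule for similar patterns picked is not reported here. The members and lists were chosen with earlier results of these data known, and the within-library ratios after the counts were seen. As alternatives, DESeq2 1.42.0, RLE scaling, a count minimum of 50 or none, the replicate block, fits of the compared groups alone or of protein-coding nuclear genes alone, the transcript with the most counts, and leaving out each library were run.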

Additional observations from a re-analysis of the deposited data

Results flagged for a closer look

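In these genes the rapamycin change differed between the siRNAs by the interaction term of the edgeR fit. For Cx3cl1 the difference, knockdown less Luc libraries, was -0.34 (SE 0.07, edgeR adjusted p = 0.037). Among the other lists, Il1rap, with 62.8% of its bases countable, had -0.68 (edgeR adjusted p = 0.042), Ptx3 -0.62 (0.0077), Gadd45b 0.56 (0.0024) and Dusp1 0.46 (0.012). The myoblast markers Chrna1 (0.28), Itga7 (0.39) and Cdh15 (0.41) had edgeR adjusted p = 0.048, 0.019 and 0.024. Gadd45b and Dusp1 kept the call in all 18 alternatives. Ptx3 and Itga7 kept it in 17, Cdh15 in 14, Chrna1 in 11 and Il1rap in 8 of them. Groups of 3 libraries were too small for a search for single outlying libraries.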

How the results depend on the processing

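No member changed sign of a called value in any alternative run. Over members, comparisons and alternatives, 643 values kept their side of the threshold, 10 gained a call and 16 lost one. The count of members lower with rapamycin in Luc libraries was 0, 2 with no count filter (Ccl7 -0.20, Cxcl5 -0.16), and 0 to 2 on leaving out each library. The count of members lower in the interaction was 1, and 0 with RLE scaling, with the replicate block, with the transcript with the most counts, and 0 to 1 on leaving out each library. The cause was not tested. Nfkbia for the siRNA in ethanol passed with no count filter, a minimum of 50, only the compared groups, protein-coding genes only, the transcript with the most counts and without Crebl2 ethanol library 3. Over all genes, the interaction called 159, with 81 higher and 78 lower. It called 377 with DESeq2, 415 with no count filter (310 higher), 138 with RLE scaling (89 higher, 49 lower) and 91 with the replicate block. Without Luc ethanol library 2 it called 94, without Crebl2 ethanol library 1 102, without Luc rapamycin library 3 88 and without Crebl2 rapamycin library 3 85. Deviations of same-numbered libraries from their group means had correlations from -0.43 to 0.20. Without differently numbered pairs beside them, these values cannot tell whether a number marks a shared culture or batch. The main fit did not pair libraries. With the block the Cx3cl1 interaction had an edgeR adjusted p of 0.077, and Il1rap, Itga7, Cdh15 and Chrna1 also lost that call, as did Map3k14 and Zc3h12a for the siRNA in ethanol and Mmp14 for rapamycin with the Crebl2 siRNA. Among members and genes picked by the smallest p, in the comparisons that picked them, the block changed no other call. Il6 and Tnfaip3 were read from few counts and few countable bases, and the part of depth was not tested.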
